A study of Rattus norvegicus with 58 samples.

Results

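Glutathione transferases are the enzymes that join the tripeptide glutathione to reactive compounds. Here 7 of them were followed in rat liver: Gsta3 and Gsta4 of the alpha class, Gstm1 and Gstm2 of the mu class, Gstp1 of the pi class, Gstt1 of the theta class and Gstk1 of the kappa class. They were chosen by name, as probe sets carrying that single gene symbol, out of 14217 genes so measured. All 7 were found, each by exactly 1 probe set, so no second probe set of any of them could serve as a check. Their levels differed among inbred strains for Gsta3, Gstt1 and Gstk1, and for none of the 7 did the glucose groups differ past the test's threshold.

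Conjugation to glutathione makes electrophiles such as epoxides, halogenated compounds and lipid peroxidation products more water-soluble, and the conjugates are then pumped out of the cell. Hepatocytes are rich in the cytosolic alpha and mu classes, while the kappa enzyme sits in mitochondria and peroxisomes. Many of these genes are induced by foreign compounds, partly through the transcription factor NRF2, which binds the antioxidant response element, and partly through nuclear receptors.

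The levels were measured on Affymetrix arrays in the livers of 58 male rats aged 17 weeks and fasted overnight, 1 array per rat. The heterogeneous stock (HS), an outbred colony descended from inbred founder strains, gave 23 glucose-intolerant and 23 glucose-normal rats. From inbred founders of that stock came 2 rats each: ACI, BN, BUF, F344, M520 and WKY. No allele was engineered and no agent given in any group, as far as the labels say, and all groups shared the age, sex and fast. In the intolerant rats' labels the words normal and intolerance stand together, and the grouping rests on the sample titles and the design text. Values are given as log2 expression, where 1 unit corresponds to a doubling.

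The arrays were on a common scale, with medians between 5.33 and 5.39, and no arrays held identical values. Arrays of the same strain correlated at 0.989 (BUF) or higher, up to 0.997 (ACI). The second BUF array stood apart, with a median correlation of 0.976 with the HS arrays, the lowest of the 58, and the BUF calls of Gstt1 and Gstk1 are given with and without it. Markers of hepatocytes gave strong signals, with a mean of 14.94 for albumin (Alb) and 14.36 for transthyretin (Ttr) over the 58 arrays. Separate litters, cages or days are not stated for rats of 1 strain, and p-values therefore cover the spread between these arrays alone. The sources used here give neither kinship of the HS rats nor scan dates, and batches were not tested.

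Promoter sequences are shown for the alpha member that varied most, for the pi member, and for the mu pair whose levels moved together in HS rats. RefSeq's GRCr8 table, from the BN reference genome, held promoter entries for 6 of the 7 genes, with 2 entries for Gsta3. Each runs from 250 bases before to 50 bases after the start annotated for that entry and is written 5′ to 3′ on the gene's strand. For Gstm1 and Gstp1 the whole window lies inside RefSeq's outer bounds of the gene. Capitals mark motifs that were searched on both strands. They are TGACNNNGC, the core of the antioxidant response element, and TGACTCA, which is the binding site of the transcription factor AP-1. The search also covered CCAAT, which general promoter factors bind, and the TATA box in the form TATAAA. The windows are chr9:31154739-31155038 on the plus strand for the first Gsta3 entry, chr1:210769656-210769955 on the minus strand for Gstp1, chr2:198343334-198343633 on the minus strand for Gstm1 and chr2:198316868-198317167 on the minus strand for Gstm2.
Gsta3: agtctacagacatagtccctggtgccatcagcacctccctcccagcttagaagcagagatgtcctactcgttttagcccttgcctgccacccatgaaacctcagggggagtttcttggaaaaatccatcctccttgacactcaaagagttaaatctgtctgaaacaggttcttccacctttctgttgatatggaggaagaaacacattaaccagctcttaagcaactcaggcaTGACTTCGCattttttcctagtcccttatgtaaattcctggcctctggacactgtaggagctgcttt
Gstp1: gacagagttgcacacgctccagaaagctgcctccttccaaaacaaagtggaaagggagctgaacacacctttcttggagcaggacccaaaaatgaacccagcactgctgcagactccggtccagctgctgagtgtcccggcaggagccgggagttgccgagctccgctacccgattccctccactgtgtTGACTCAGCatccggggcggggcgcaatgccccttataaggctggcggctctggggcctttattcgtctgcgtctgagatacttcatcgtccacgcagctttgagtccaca
Gstm1: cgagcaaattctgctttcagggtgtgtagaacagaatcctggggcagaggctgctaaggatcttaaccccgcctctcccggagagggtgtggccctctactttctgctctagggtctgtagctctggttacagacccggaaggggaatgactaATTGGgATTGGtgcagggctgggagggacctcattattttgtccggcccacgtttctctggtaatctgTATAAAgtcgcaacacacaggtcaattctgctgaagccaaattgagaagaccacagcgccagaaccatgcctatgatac
Gstm2: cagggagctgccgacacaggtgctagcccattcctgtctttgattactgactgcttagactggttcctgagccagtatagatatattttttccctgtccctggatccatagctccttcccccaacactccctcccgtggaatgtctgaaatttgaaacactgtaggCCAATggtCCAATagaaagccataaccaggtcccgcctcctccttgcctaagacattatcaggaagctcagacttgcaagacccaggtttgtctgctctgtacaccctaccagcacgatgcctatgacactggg
The first Gsta3 window held TGACTTCGC starting 17 bases before the start of its entry. The second Gsta3 entry, chr9:31166793-31167092 on the plus strand, held none of the searched motifs and is not printed. The Gstp1 window held TGACTCAGC starting 61 bases before the start of its entry. The Gstp1 match also contains TGACTCA, so that both motifs overlap there. The Gstm1 window held the CCAAT box on the opposite strand, read as ATTGG, at 97 and 91 bases before the start, and TATAAA at 29 bases. The Gstm2 window held CCAAT at 84 and 76 bases. Of 33469 rat promoter windows of this length, 12.1% held TGACNNNGC, 4.63% held TGACTCA, 37.5% held CCAAT and 14.2% held TATAAA. The promoters of Gsta4 and Gstk1 each held a CCAAT box and none of the other motifs. A match to letters is a description of the reference sequence and says nothing of binding.

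The first comparison asked which glutathione transferases differ among the 6 inbred strains. Gsta3, Gstt1 and Gstk1 were called by limma's moderated F test at an adjusted p under 0.05, 3 of 7 members, while 11.9% of all 31042 probe sets and 13.8% of genes were called. The ranges of their strain means were 5.30, 1.31 and 1.40 on the log2 scale, and the median range was 0.44 over all genes and 1.02 over the genes called. All 3 calls were kept in each of 21 alternative settings, which included leaving out every inbred array in turn.

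**Figure D1:**
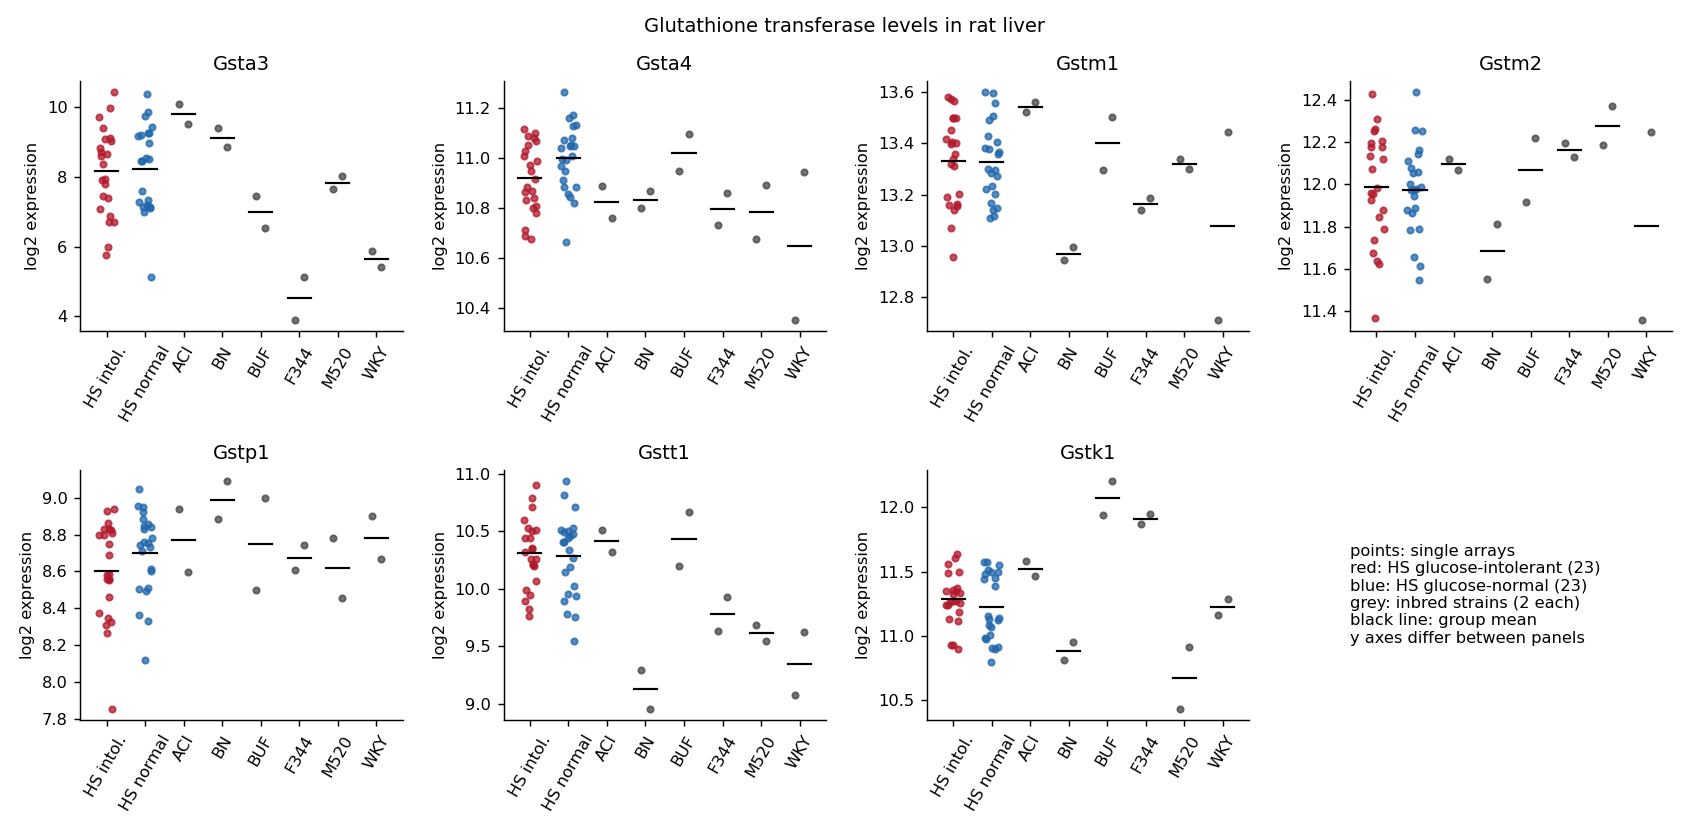
Log2 expression of each glutathione transferase (y axis, scales differ between panels) in single rats by group (x axis), with group means as black lines. Gsta3 spans 5.30 between the strain means of F344 and ACI and is spread over most of that range in both HS groups, while Gsta4 and Gstp1 strain means differ by 0.37 each.

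Gsta3, whose mouse namesake is known for conjugating the epoxide of aflatoxin, was the most variable member. RefSeq also lists its gene under the names Gsta5 and Yc2, between Tmem14a and Gsta1. Its arrays held 10.11 and 9.52 in ACI, 9.40 and 8.86 in BN, 7.46 and 6.53 in BUF, 3.89 and 5.14 in F344, 7.66 and 8.02 in M520, and 5.87 and 5.42 in WKY. Both ACI arrays lay above all 10 others, both F344 arrays lay below all others, and no strain's pair of arrays overlapped that of another. Over the 6 strains the adjusted p of limma's F test was 3.91e-05. Both F344 arrays were below the medians of all arrays, and the table does not say whether signals that low are above background, so differences from F344 are given on the log2 scale and not as a fold. Whether the probe set also binds transcripts of closely related alpha-class genes was not tested.

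Against the mean of the other 5 strains, Gsta3 was higher in ACI and BN and lower in F344 and WKY. ACI averaged 9.81 against 6.82 in the other strains, a difference of 2.99 (SE 0.31, limma adjusted p = 0.000342). BN averaged 9.13 against 6.96, a difference of 2.17 (SE 0.31, limma adjusted p = 0.00177), and without the first BN array the adjusted p was 0.0587. F344 averaged 4.51 against 7.88, a difference of -3.37 (SE 0.31, limma adjusted p = 0.000144). WKY averaged 5.64 against 7.66, a difference of -2.01 (SE 0.31, limma adjusted p = 0.00307). BUF and M520 lay between these strains, at -0.40 and 0.62 from the mean of the others, and neither was called. When all 58 arrays were fitted together, so that the strains shared the spread of the HS rats, limma's adjusted p was 0.0990 for ACI, 0.215 for BN, 0.0694 for F344 and 0.231 for WKY, and none of these 4 calls was kept.

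In ascending order the Gsta3 strain means were F344, WKY, BUF, M520, BN and ACI. No neighbouring pair in that order differed past the threshold, with limma adjusted p-values of 0.170 for F344 against WKY, 0.0723 for BUF against WKY, 0.243 for BUF against M520, 0.0917 for BN against M520 and 0.455 for ACI against BN. Of the 15 pairs of strains, 10 were called, where the share of all probe sets called ran between 1.11% in BUF against F344 and 6.48% in ACI against BUF. In the other pairs with ACI this background was 3.32% against BN, 1.68% against F344, 2.3% against M520 and 2.65% against WKY. In those with BN it was 5.69% against BUF, 3.3% against F344, 5.28% against M520 and 3.53% against WKY, and in the rest it was 4.97% for BUF against M520, 6.06% for BUF against WKY, 2.19% for F344 against M520, 3.78% for F344 against WKY and 5.91% for M520 against WKY. Of the 10 pairs called for Gsta3, 6 were kept when any single array was left out: ACI against BUF, ACI against F344, ACI against WKY, BN against F344, BN against WKY and F344 against M520. The difference between ACI and F344 was 5.30 (95% interval 4.42 to 6.17, limma adjusted p = 3.23e-05), and that between BN and WKY was 3.49 (2.61 to 4.36, limma adjusted p = 0.000416).

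The annotated neighbours of Gsta3 varied with it over the 46 HS rats, with r = 0.59 and rho = 0.63 for Tmem14a and r = 0.63 and rho = 0.71 for Gsta1, given as a description. Their order over the 6 strains was different. Tmem14a, a small transmembrane protein gene, averaged 8.34 in ACI and 7.71 in WKY and between 4.24 and 4.57 in the other 4 strains. Those 4 means, and the mean of 5.30 over HS rats, were below the medians of all arrays. Whether Tmem14a signals that low are above background is not given, and whether its values in HS rats form clusters was not tested. Gsta1, another alpha-class transferase, had means between 12.49 in BN and 13.28 in ACI. WKY thus combined a low Gsta3 with a high Tmem14a, while BN combined a high Gsta3 with the lowest Gsta1.

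Gstt1, the theta-class enzyme known for acting on small halogenated compounds such as dichloromethane, was high in ACI and BUF and low in BN. Its arrays held 10.51 and 10.32 in ACI, 9.30 and 8.96 in BN, 10.20 and 10.67 in BUF, 9.64 and 9.93 in F344, 9.68 and 9.55 in M520, and 9.08 and 9.62 in WKY. The ACI and BUF arrays lay above those of the other 4 strains, and the BN arrays overlapped those of WKY. The adjusted p of limma's F test was 0.0058, and the mean of BUF stood 2.47-fold above that of BN.

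BUF averaged 10.43 for Gstt1 against 9.66 in the other strains, a difference of 0.78 (SE 0.16, limma adjusted p = 0.0222). ACI averaged 10.42 against 9.66, a difference of 0.75 (SE 0.16, limma adjusted p = 0.0369). BN averaged 9.13 against 9.92, a difference of -0.79 (SE 0.16, limma adjusted p = 0.0174). Each of these single-strain calls was lost when some single array was left out: adjusted p was 0.436 for BUF without the second BUF array, 0.566 for ACI without the first ACI array and 0.229 for BN without the second BN array. The call for ACI was also lost without the second ACI array (0.204), the second BN array (0.0596), or either M520 array (0.0642 and 0.0674), and that for BN without the first BN array (0.0695). With all 58 arrays in 1 fit the adjusted p was 0.139 for ACI and 0.0575 for BN. The call for ACI also missed the threshold after quantile normalisation (0.0639), and that for BUF with array weights (0.0637). In the pairs of strains, 4 of 15 were called. The difference of -1.31 between BN and BUF (SE 0.21, limma adjusted p = 0.0042) was kept without any single array, and the pairs ACI against BN, ACI against WKY and BUF against WKY were each lost without at least 1 array.

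Gstk1, the kappa-class enzyme of mitochondria and peroxisomes, was high in BUF and F344 and low in M520 and BN. Its arrays held 11.58 and 11.47 in ACI, 10.81 and 10.96 in BN, 11.94 and 12.20 in BUF, 11.87 and 11.95 in F344, 10.44 and 10.91 in M520, and 11.17 and 11.29 in WKY. The arrays of BUF and F344 overlapped each other and lay above the 8 others, and those of BN and M520 overlapped each other and lay below the rest. The adjusted p of limma's F test was 0.000825, and the mean of BUF stood 2.63-fold above that of M520.

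For Gstk1, BUF averaged 12.07 against 11.24 in the other strains, a difference of 0.83 (SE 0.13, limma adjusted p = 0.0046). F344 averaged 11.91 against 11.28, a difference of 0.63 (SE 0.13, limma adjusted p = 0.0315). M520 averaged 10.67 against 11.52, a difference of -0.85 (SE 0.13, limma adjusted p = 0.00372), and BN averaged 10.89 against 11.48, a difference of -0.60 (SE 0.13, limma adjusted p = 0.0204). Each of these calls was lost without some single array: the adjusted p was 0.132 for BUF without its second array, 0.103 for M520 without its first array, 0.260 and 0.1001 for BN without its first or second array, and 0.172 and 0.301 for F344 without its first or second array. The call for F344 was also lost without the first ACI array (0.0614), the second ACI array (0.0696) or the first BN array (0.0608), and with all 58 arrays in 1 fit (0.0816).

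Of the 15 pairs of strains, 7 were called for Gstk1. BUF exceeded M520 by 1.40 (95% interval 1.04 to 1.76, limma adjusted p = 0.00102) and F344 exceeded M520 by 1.23 (0.87 to 1.59, limma adjusted p = 0.00225). The difference between BN and BUF was -1.19 (-1.55 to -0.83, limma adjusted p = 0.00155). These 3 were kept without any single array, and the pair F344 against WKY was kept in only 4 of the 12 fits that left out an array. ACI and WKY, in the middle of the order, did not differ past the threshold (0.30, 95% interval -0.06 to 0.66).

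**Figure D2:**
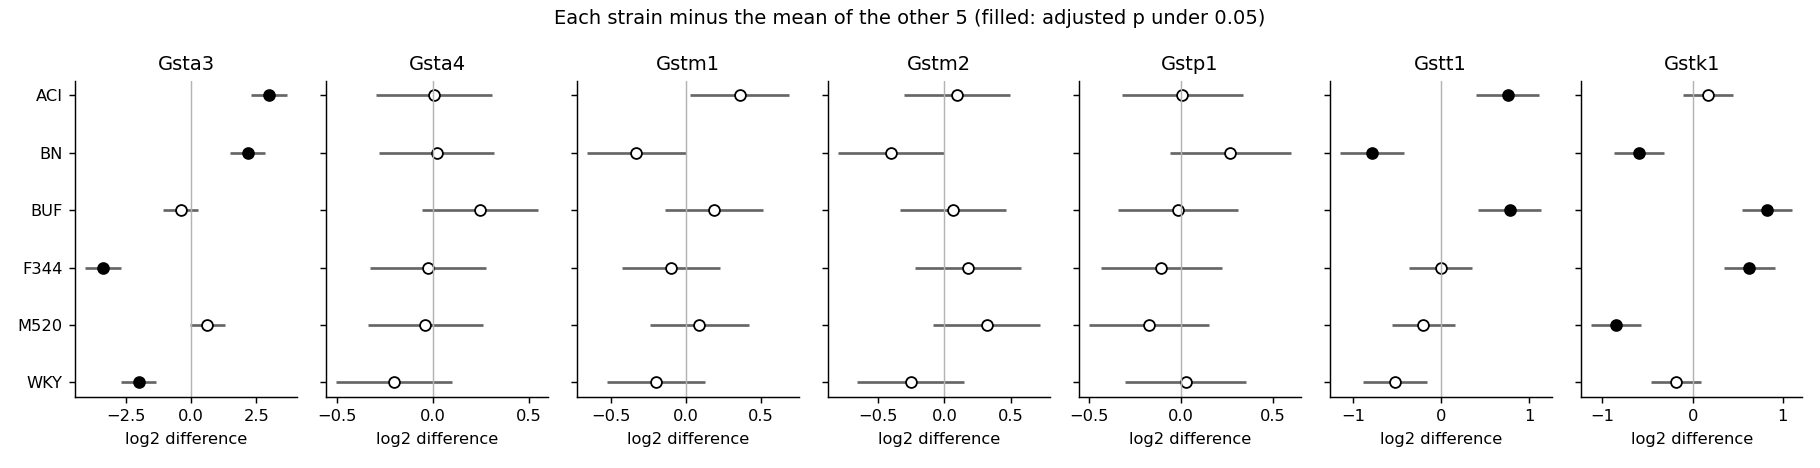
Difference in log2 expression between each strain (y axis) and the mean of the other 5 (x axis, scales differ between panels), with 95% intervals and filled points where limma's adjusted p was under 0.05. Gsta3 has filled points at 2.99 for ACI, 2.17 for BN, -3.37 for F344 and -2.01 for WKY, and the panels of Gsta4, Gstm1, Gstm2 and Gstp1 have none.

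Counted by strain, the members called against the other 5 strains were 3 in BN (Gsta3 higher, Gstt1 and Gstk1 lower), 2 in ACI (Gsta3 and Gstt1 higher), 2 in BUF (Gstt1 and Gstk1 higher), 2 in F344 (Gstk1 higher, Gsta3 lower), 1 in M520 (Gstk1 lower) and 1 in WKY (Gsta3 lower). The share of all probe sets called was 4.68% in BN, 2.42% in ACI, 5.76% in BUF, 1.61% in F344, 4.65% in M520 and 4.74% in WKY. No strain was called for all 3 genes in the same direction. BN, whose members went both ways, also had the highest endothelial marker sums of the inbred strains, between 44.5 and 45.6 over 5 markers, against between 39.9 and 43.9 in the other strains. In BN 3 of 5 endothelial and 2 of 4 Kupffer cell markers were called higher. In BUF 2 endothelial and 1 Kupffer cell marker were called lower, in M520 1 of each list was called lower, and in WKY 1 Kupffer cell marker was called higher. Of the other cell type markers, the matrix gene Col1a2 was called higher in WKY, Lrat and Ptprc lower in BUF, and Apoa1 lower in M520. Of 9 pericentral hepatocyte genes, 3 (Oat, Slc1a2 and Lgr5) were called higher in BN, 1 higher and 1 lower in BUF, and 1 lower in each of ACI and WKY. Lgr5 averaged 4.81 in BN and between 3.83 and 4.35 in the other strains, all below the medians of all arrays. Of 10 periportal genes, 1 was called higher and 1 lower in BN, 1 higher in BUF, 2 lower in M520 and 1 lower in WKY. The part of these cells and zones in the results was not tested. In whole liver, fewer cells of a type and less RNA per cell cannot be told apart.

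The mu-class genes Gstm1 and Gstm2, whose products conjugate aryl halides and epoxides, were not called among strains. Gstm1 ranged over the 12 inbred arrays between 12.71 and 13.56 and Gstm2 between 11.36 and 12.37. The arrays of Gstm1 held 13.52 and 13.56 in ACI, 12.94 and 12.996 in BN, 13.30 and 13.50 in BUF, 13.14 and 13.19 in F344, 13.34 and 13.30 in M520, and 12.71 and 13.44 in WKY. Those of Gstm2 held 12.12 and 12.07 in ACI, 11.55 and 11.81 in BN, 11.92 and 12.22 in BUF, 12.19 and 12.13 in F344, 12.18 and 12.37 in M520, and 11.36 and 12.25 in WKY. The first WKY array was the lowest of all 12 for both genes, while the second lay near the top of the range. With limma's F test the adjusted p was 0.250 for Gstm1 and 0.356 for Gstm2. Without the second WKY array, which leaves the low one alone in its strain, these were 0.0179 and 0.0286, and both genes were called.

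Gsta4, the alpha-class enzyme known for conjugating 4-hydroxynonenal, a product of lipid peroxidation, lay between 10.35 and 11.10 on the 12 inbred arrays. Gstp1, the pi-class enzyme that marks preneoplastic foci in rat liver and is low in normal rat hepatocytes, lay between 8.46 and 9.09. The strain means differed by at most 0.37 for each gene, below the median range of 0.44 over all genes. The adjusted p of limma's F test was 0.652 for Gsta4 and 0.678 for Gstp1. The first WKY array was again the lowest of the 12 for Gsta4.

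The outbred rats showed how widely each gene varied in animals of mixed founder ancestry. Gsta3 ran between 5.12 and 10.43 over the 46 HS rats, with the lowest value below the medians of all arrays, and its SD of 1.25 was larger than that of 99.9% of genes. Its SD within strains was 0.53. The largest gap between neighbouring HS values was 0.72, between 5.99 and 6.71, with 3 rats below it, and no rat lay between 7.94 and 8.38. Whether the values form clusters was not tested. No HS rat was at or below the F344 mean of Gsta3, 1 was at or below that of WKY, 6 at or below that of BUF, 19 at or below that of M520, 34 at or below that of BN and 42 at or below that of ACI.

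The other members varied much less in HS rats. Gstt1 had an SD of 0.33 and a 2.62-fold spread, above 90.5% of genes, Gstp1 had an SD of 0.25 (81.0% of genes), Gstm2 0.24 (77.7%) and Gstk1 0.23 (76.6%). Gstm1 and Gsta4 had SDs of 0.16 and 0.14, at the 42.1 and 24.7 percentiles of genes. For Gsta4, Gstm1 and Gstm2 the SD over HS rats was smaller than the SD within strains, which were 0.20, 0.22 and 0.29 and which include the divergent WKY arrays.

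Set against the span of the 12 inbred arrays, all 46 HS rats fell inside it for Gstk1. That span was wide, from an M520 array at 10.44 to a BUF array at 12.20. For Gsta3 44 rats fell inside and 2 above, for Gstt1 40 inside and 6 above, for Gsta4 39 inside and 7 above, for Gstm1 41 inside and 5 above and for Gstm2 44 inside and 2 above. Gstp1 was the only member with HS rats below the inbred span: 9 rats, of which 6 were glucose-intolerant and 3 glucose-normal, with 37 inside.

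The second comparison asked whether glucose tolerance in HS rats went with a different level of any of these genes. None of the 7 was called by limma, and none had an unadjusted p under 0.05. Among all 31042 probe sets 0, or 0%, were called, and 2483, or 8%, had an unadjusted p under 0.05. When a residual component was added to the fit, 185 probe sets passed, and still none of the 7 genes did. The groups overlapped over nearly their whole range for each gene.

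Gsta4 had the smallest p of the 7. Its lowest, median and highest values were 10.67, 10.92 and 11.11 in intolerant rats, against 10.66, 11.01 and 11.26 in normal rats. Intolerant rats averaged 10.92 ± 0.14 and normal rats 10.999 ± 0.14 (SD, n = 23 each), with a difference of -0.08 (95% interval -0.16 to 0.0019, limma unadjusted p = 0.0552, adjusted p = 0.630). Over 10 alternative settings its adjusted p lay between 0.375 and 0.705.

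Gstp1 had its lowest, median and highest values at 7.86, 8.59 and 8.94 in intolerant rats, against 8.12, 8.75 and 9.05 in normal rats. Its mean was 8.60 ± 0.27 in intolerant rats, against 8.70 ± 0.23 in normal ones (SD, n = 23 each), which is a difference of -0.10 (95% interval -0.24 to 0.04, limma adjusted p = 0.731). The 5 measured endothelial markers all averaged lower in intolerant rats (median difference -0.14), as did the 4 Kupffer cell markers (-0.12). Of 9 pericentral hepatocyte genes and 2 red cell markers, 0 averaged higher, while of 10 periportal genes 5 did. Over all genes the median difference was -0.01. The count averaging higher was 2 of 6 stellate and matrix, 3 of 5 hepatocyte, 3 of 5 bile duct cell and 3 of 4 lymphocyte markers. In each of the bile duct cell and lymphocyte lists, 3 markers averaged below the medians of all arrays. The summed log2 level of the endothelial markers ran between 37.6 and 43.3 in intolerant rats and between 39.1 and 43.4 in normal rats. The part of any of these markers in the Gstp1 difference was not tested.

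Gsta3 had its lowest, median and highest values at 5.76, 8.38 and 10.43 in intolerant rats, against 5.12, 8.47 and 10.38 in normal rats. The mean was 8.16 ± 1.26 in intolerant rats, against 8.23 ± 1.26 in normal ones (SD, n = 23 each), a difference of -0.08 (limma adjusted p = 0.972). The interval of that difference, -0.79 to 0.64, was far wider than for the other members, so a difference of that size in either direction would not be detectable with these arrays. Counted against the strain means of Gsta3, 0 intolerant rats and 1 normal rat were at or below WKY, 5 and 1 at or below BUF, 9 and 10 at or below M520, 19 and 15 at or below BN, and 21 and 21 at or below ACI. A normal rat at 6.997 lay just above the BUF mean of 6.992, and these counts were not tested.

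Intolerant rats averaged 11.29 ± 0.20 for Gstk1, against 11.23 ± 0.26 for normal rats (SD, n = 23 each), with a difference of 0.06 (95% interval -0.07 to 0.20, limma adjusted p = 0.842). For Gstt1 the means were 10.31 ± 0.30 in intolerant against 10.28 ± 0.36 in normal rats, a difference of 0.02 (-0.17 to 0.21, limma adjusted p = 0.965). The mu-class genes were closest between the groups. Gstm1 averaged 13.33 ± 0.17 in intolerant and 13.33 ± 0.15 in normal rats, with a difference of 0.0037 (-0.09 to 0.10), which was -0.00088 after quantile normalisation, so it had no stable sign. Gstm2 averaged 11.99 ± 0.26 in intolerant and 11.98 ± 0.21 in normal rats, with a difference of 0.01 (-0.13 to 0.15).

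**Figure D3:**
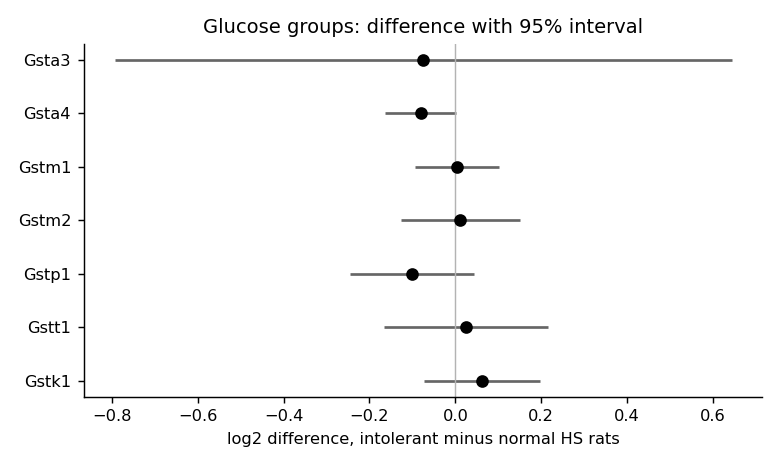
Log2 expression in glucose-intolerant minus glucose-normal HS rats (x axis) for each gene (y axis), with 95% intervals over 23 rats a group. Every interval includes 0, the interval of Gsta3 reaches from -0.79 to 0.64, and that of Gsta4 ends at 0.0019.

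Among the 21 pairs of members, 1 varied together over the 46 HS rats past the threshold. Gstm1 and Gstm2, which are neighbours on the same chromosome, had Pearson's r = 0.76 and Spearman's rho = 0.80, each with a permutation p = 1e-05, the smallest the resampling can give, and 0.00021 after adjustment over the 21 pairs. Without the 2 rats farthest from the median of Gstm1 r was 0.77. Within intolerant rats r was 0.71 and rho 0.73 (permutation p = 0.00017 and 9e-05), and within normal rats r was 0.83 and rho 0.85 (permutation p = 1e-05 each). Whether the probe sets of these closely related genes bind each other's transcripts was not tested. The r of the other 20 pairs lay between -0.13 and 0.33, and 3 of them had an unadjusted permutation p under 0.05.

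**Figure D4:**
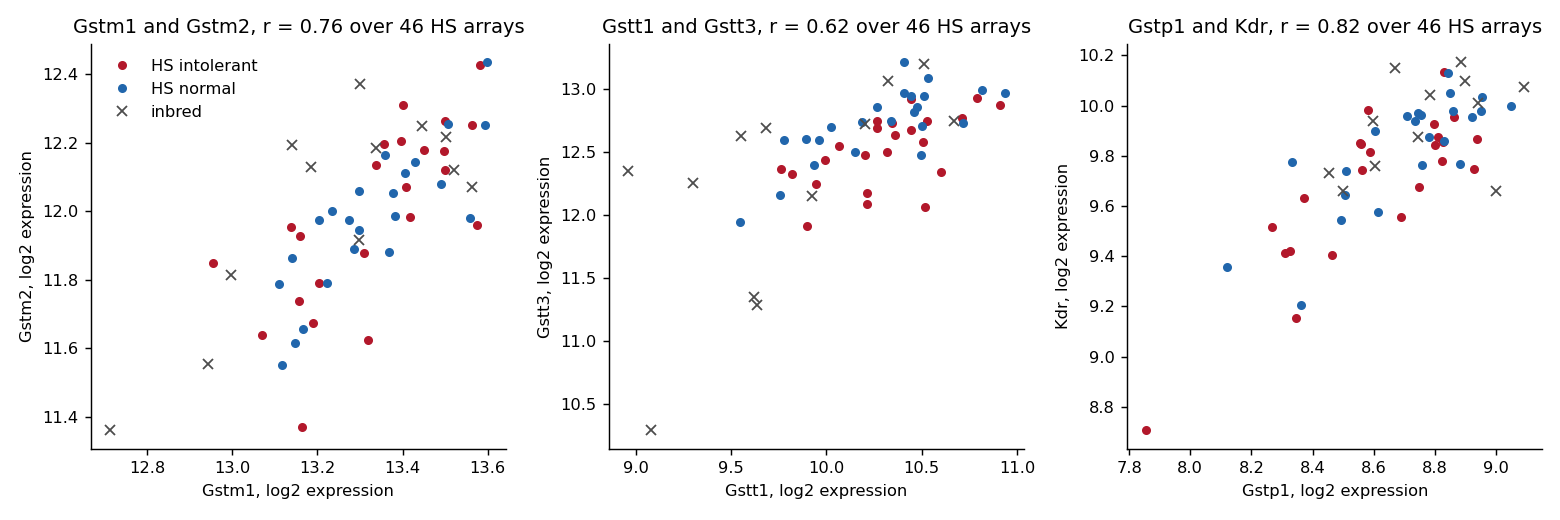
Log2 expression of Gstm1 and Gstm2, Gstt1 and Gstt3, and Gstp1 and Kdr in single rats (points, HS rats by glucose group; crosses, inbred rats). Over the 46 HS rats r was 0.76, 0.62 and 0.82, and both glucose groups lie along the same cloud in each panel.

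The genes most alike to each member over the 46 HS rats were listed as a description, by Pearson's r. They were chosen for their r out of all genes measured, and arrays and rats are shared within each r. Gsta3 was most like Commd3 (0.70), Lcmt1 (0.69) and Plaat3 (0.68), whose r with it over the 6 strain means was 0.29, 0.60 and -0.11. Gstt1 was most like the neighbouring theta-class gene Gstt3 (0.62), then Pgm3 (0.53) and Top3a (0.51). Gstk1 was most like Bag3 (0.56), Pex14 (0.54), a peroxisome import factor, and Kif1c (0.54).

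Gstm1 was most like Gstm2 (0.76), Gstm3 (0.69) and Akr7a3 (0.63), an aflatoxin aldehyde reductase. Over the 6 strain means, the r of Gstm1 was -0.27 with Gstm3 and 0.94 with Akr7a3. Neither r was tested, and Gstm1 itself was not called among strains. Gstm2 was most like Gstm1, Ust5r (0.63) and Gsr (0.60), the glutathione reductase. Gsta4 was most like Enpp3 (0.72), Selenbp1 (0.70) and Psmd9 (0.68).

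Gstp1 was most like Serpinb6a (0.83), Kdr (0.82), a vascular endothelial growth factor receptor of endothelial cells, and Elk3 (0.81). Over the list of endothelial markers its r was positive for 5 of 5, between 0.41 for Pecam1 and 0.82 for Kdr, with a median of 0.69. For Kupffer cell markers r was between 0.27 and 0.47 for 4 of 4, and for stellate and matrix markers it was positive for 5 of 6, up to 0.64 for Lrat. For lymphocyte markers r was positive for 4 of 4, between 0.07 for Cd3e and 0.37 for Ptprc. Of these 4, 3 averaged below the medians of all arrays, as did 3 of 5 bile duct cell markers. Whether signals that low are above background is not given. For hepatocyte markers the median r was -0.05, and for bile duct cell markers r lay between -0.04 and 0.27. The 2 red cell markers had r of -0.11 and 0.05. For the other 6 members the median r with the endothelial markers lay between -0.24 for Gstm1 and 0.0235 for Gstt1. This comparison of marker lists was made after the values were seen.

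Among the other glutathione transferases, 17 of 24 listed genes were measured, and 12 of these 17 (70.6%) were called by the strain F test, beside 13.8% of all genes. The count lay between 9 and 12 when single arrays were left out. The range of strain means of these 17 genes had a median of 0.82. Smallest in p was Gstt3, next to Gstt1, with strain means of 13.14 in ACI, 12.30 in BN, 12.74 in BUF, 11.72 in F344, 12.66 in M520 and 10.82 in WKY (limma F test adjusted p = 0.0038). Gstm3, a mu-class gene, averaged 8.04 in M520, 7.16 in BN and between 5.88 and 6.23 in the other 4 strains (adjusted p = 0.00412). Mgst2, a microsomal enzyme, averaged 10.06 in M520 and between 10.60 and 11.03 in the others (adjusted p = 0.00442). Gsto1, of the omega class, averaged 10.65 in BN and between 11.12 and 11.52 in the others (adjusted p = 0.00462).

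By strain, the other glutathione transferases called against the mean of the remaining strains were 5 lower and 0 higher in BN, and 4 lower and 1 higher in M520. BUF had 1 lower and 4 higher, WKY 2 lower and 1 higher, ACI 0 lower and 1 higher, and F344 none. Among all genes, the shares called lower and higher were 2.39% and 3.36% in BN, 4.22% and 1.34% in M520, 3.86% and 3% in BUF, 2.26% and 3.53% in WKY, 0.985% and 1.46% in ACI, and 0.935% and 0.795% in F344. BN was thus low in 5 of these genes as in Gstt1 and Gstk1, and high in Gsta3. Gstm5, Gstm6l, Gsto2, Gstcd and Mgst1 were not called by the F test.

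**Figure D5:**
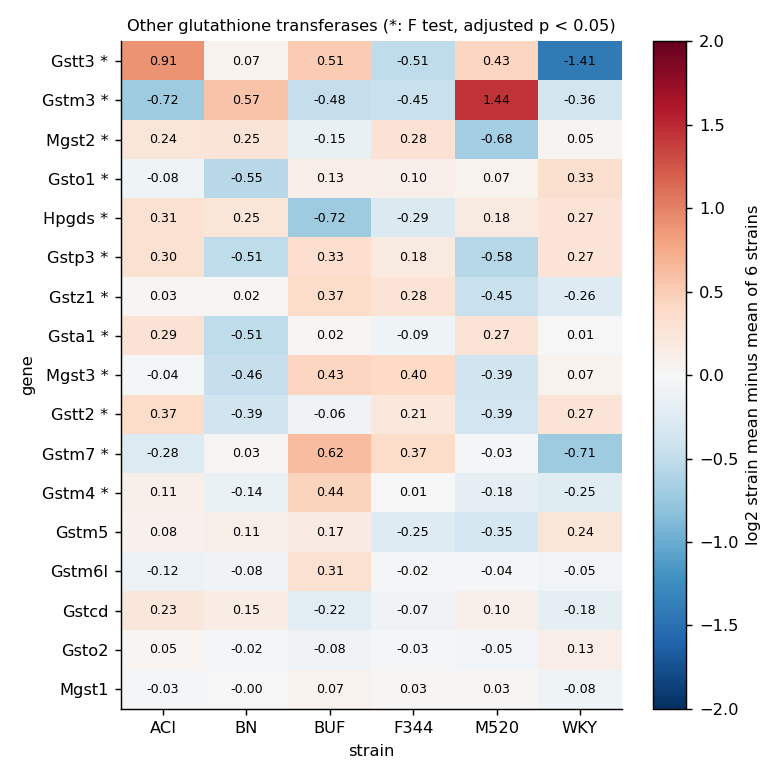
Strain mean minus the mean of the 6 strains, in log2 expression (colour and printed value), for the 17 other glutathione transferases (rows, in order of the F test's p) and the 6 strains (columns), with stars where limma's adjusted p was under 0.05. The largest departures are Gstm3 at 1.44 in M520 and Gstt3 at -1.41 in WKY.

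Of 27 genes for glutathione synthesis, reduction, use and export, 4 (14.8%) were called by the strain F test, close to the 13.8% of all genes. They were the conjugate exporters Abcc2 (limma adjusted p = 0.000268) and Abcc4 (0.000295), the aminopeptidase Anpep (0.00659) and the oxoprolinase Oplah (0.0204). The count ran between 3 and 11 when single arrays were left out, with 11 without the first BUF array, 8 without the first F344 array and 7 without the second WKY array. Abcc2 was highest in WKY, at 11.51, against between 9.90 and 10.60 in the other strains. Gclc, the catalytic subunit of the rate-limiting enzyme of glutathione synthesis, was not called (adjusted p = 0.0874).

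Of 14 measured NRF2 target genes, 9 (64.3%) were called among strains, beside 13.8% of all genes, and between 6 and 9 without single arrays. Nqo1, a quinone reductase, averaged 10.33 in ACI, 7.49 in BN, 10.16 in BUF, 7.66 in F344, 7.20 in M520 and 9.22 in WKY (limma adjusted p = 2.16e-05). Akr1b8 (0.000244), Me1 (0.000642) and Akr7a3 (0.00155) followed. Against the other strains 4 genes of the list were called higher and 1 lower in ACI, 1 higher and 2 lower in each of BN, BUF and M520, 0 higher and 2 lower in F344, and 2 higher and 1 lower in WKY. ACI was called high and F344 low in both Gsta3 and Nqo1, while BN was high in Gsta3 and low in Nqo1. BUF was high and M520 low in Nqo1 without a call for Gsta3, and WKY was low in Gsta3 without a call for Nqo1.

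Of 17 measured regulators and cytochrome P450 targets of foreign compound metabolism, 6 (35.3%) were called, beside 13.8% of all genes, and between 3 and 7 without single arrays. The nuclear receptor Nr1i3 (limma adjusted p = 0.000718) was lowest in WKY, at 7.55, against between 8.55 and 9.49 in the other strains. Cyp3a9 (0.0041), the aryl hydrocarbon receptor Ahr (0.0137) and Nfe2l2 (0.0324), which encodes NRF2, were also called. Ahr averaged 5.52 in ACI and between 3.78 and 5.16 in the other strains. Those lower means were below the medians of all arrays, and whether they are above background is not given. Nfe2l2 averaged 10.37 in ACI, 9.31 in BN, 9.73 in BUF, 9.55 in F344, 10.23 in M520 and 10.11 in WKY.

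In the glucose groups, none of these 4 lists had a gene called, beside 0% of all genes. Intolerant rats had the higher mean for 4 of the 17 other glutathione transferases, and the median difference was -0.03, while the median over all genes was -0.01. Gstt3 had the smallest p, with 12.52 in intolerant and 12.72 in normal rats, a difference of -0.21 (SE 0.08, limma unadjusted p = 0.0161, adjusted p = 0.521). Mgst2 came next, at 10.71 in intolerant and 10.84 in normal rats, a difference of -0.12 (limma unadjusted p = 0.0583, adjusted p = 0.633). Beside them Gstt1, the neighbour of Gstt3, differed by 0.02.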

How the data were processed

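Liver RNA was amplified in 2 cycles, biotin-labelled and hybridised to Affymetrix 230_2 arrays, per the labels' protocols and the series' design text. The deposited table holds the authors' log2 expression values for 31042 probe sets on 58 arrays. Partek is named, with no version, in the submitters' processing notes, and the steps of background correction and normalisation are not given. Precision is limited by the number of arrays.

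Of the probe sets, 20826 had a single symbol, 436 several and 9780 none; unnamed ones were tested but not reported. A gene is represented by its probe set of highest mean, giving 14217 genes, of which 14167 were found in RefSeq's GRCr8 table. Tests used limma 3.58.1 in R 4.3.3 on the log2 values as deposited, without a filter, with Benjamini-Hochberg adjustment over all probe sets and a threshold of 0.05. The glucose groups were fitted on 46 HS arrays (44 residual degrees of freedom) and the strains on 12 inbred arrays (6). Correlations between members used 100000 permutations. The fits were tested on simulated data.

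The 7 genes and the other lists were chosen with earlier results of these data known. Named from each list were up to 4 called genes of smallest p among strains and the 2 of smallest p between glucose groups, where these bear on the 7 genes. Gclc, the genes named as not called, the marker sums and the neighbouring genes were added after their values were seen. Alternatives covered other normalisations, variance estimates, array weights, filters, groupings and leaving out arrays.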

Additional observations from a re-analysis of the deposited data

How the results depend on the processing

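The 3 strain calls of the F test held in all 21 alternatives, and no member was called between glucose groups in any of 10, although the probe sets called there numbered 1 under quantile normalisation, 12 under array weights and 185 with a residual component as a covariate, against 0. The glucose difference of Gstm1 turned to -0.000881 under quantile normalisation. Members called against the other 5 strains numbered 1 instead of 2 in ACI under quantile normalisation and 1 instead of 2 in BUF under array weights. With all 58 arrays in 1 fit, where the strains share the larger spread of HS rats, they numbered 0 in ACI, 1 in BN, 0 in F344 and 0 in WKY. Leaving out single arrays gave 3 to 5 members in the F test, 1 to 3 in ACI, 0 to 5 in BN, 0 to 2 in BUF, 1 to 2 in F344, 0 to 1 in M520 and 1 to 4 in WKY. Over all probe sets, leaving out single arrays moved the count of the F test between 2130 and 5945 (3700 with all arrays), that of ACI between 148 and 1452 (752), of BN between 498 and 1676 (1454), of BUF between 229 and 4255 (1789), of F344 between 179 and 687 (499), of M520 between 230 and 2296 (1445) and of WKY between 487 and 1751 (1471). Array weights gave 2673 for ACI, 538 for BUF and 2247 for M520, and all 58 arrays in 1 fit gave 264 for ACI, 960 for BN and 140 for F344. The 5 members in BN came without the first WKY array and the 4 in WKY without the second; the cause was not tested. Deviations of same-numbered arrays from their strain means had a median correlation of -0.06 over 15 pairs of strains, with a range of -0.15 to 0.42. Whether some same-numbered arrays shared a batch cannot be told from this, and the main fits treat the rats as unpaired. With the replicate block 3 members were called by the F test. The alternatives on other probe sets of a member were not run, since each member has 1. With 2 arrays a strain, single-strain calls rest on few rats.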
